A study of Mus musculus with 18 samples.

Results

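Open chromatin was examined at 9 junction genes of lung endothelial cells (ECs), namely Cdh5, Ctnnb1, Pecam1, Cldn5, Esam, Jam2, F11r, Tjp1 and Cgnl1. A region was a merged stretch of ATAC-seq peaks found in at least 2 of 18 mice, and it was given to a gene when that gene had the transcription start site (TSS) nearest to its midpoint or when the midpoint lay in the gene body. This gave 86 regions of 47338 in all, of which 14 were included through the gene body alone because another gene had the nearer TSS. ATAC-seq uses the transposase Tn5, which inserts adapters into accessible DNA, so that sequenced fragments pile up over open promoters and enhancers.

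All mice were of the FVB strain and carried a Col1α1-GFP reporter, which marks fibroblasts. The groups were Young Sham (5 mice), Young Bleo (4), Aged Sham (4) and Aged Bleo (5). Age was 2 months in the young and 18 months in the aged groups. Bleo mice had received bleomycin into the trachea at about 1 U/kg, Sham mice the vehicle PBS, and all lungs were taken at day 30. ECs were sorted as CD31+ cells negative for CD45, EpCAM and GFP, and each mouse gave 1 list of peaks. CD31 is the protein product of Pecam1, so one of the 9 genes was itself the gate of the sort. The sort does not part arterial, capillary, venous and lymphatic ECs, and fewer cells of a type and less accessibility per cell cannot be told apart in such a bulk measurement.

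ECs are held together by adherens junctions and tight junctions, which set how much fluid and how many leukocytes cross the vessel wall. In adherens junctions VE-cadherin (Cdh5) binds VE-cadherin on the neighbouring cell and is tied to actin through the catenins, among them β-catenin (Ctnnb1). In tight junctions claudin-5 (Cldn5) seals the cleft, the immunoglobulin-like proteins ESAM, JAM-B (Jam2) and JAM-A (F11r) join the cells, ZO-1 (Tjp1) forms the scaffold beneath them, and paracingulin (Cgnl1) links junctions to actin and microtubules. PECAM-1 sits at EC contacts outside both structures and takes part in flow sensing and in leukocyte passage. In the lung these proteins keep plasma out of the thin wall between capillary and alveolus.

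Regions are named here by gene and by the distance of their midpoint from the TSS in bp, negative upstream. The sequences of 7 regions are printed because the results turn on them: the strong distal regions of Cldn5 and Pecam1, the strong intronic region of Esam, and 3 regions called in strength between groups, of which Cgnl1 -54767 had a peak in Young Bleo mice alone and entered the set only through them. Each is the plus strand of the mm10 reference (GRCm38.p6, from RefSeq), read 5′ to 3′ over 200 bases around the strongest summit. The reference is of C57BL/6J and not of the FVB mice studied. Capitals mark matches on either strand to CAGGAAG or AACAGGAA, forms of the site of ETS factors such as ERG, and to TGANTCA, the site of AP-1 factors. AACAGGAA and CAGGAAG can overlap, as they do in Cldn5 -43394, and CTTCCTG is CAGGAAG read on the minus strand.
Cldn5 -43394 (chr16:18733229-18733428): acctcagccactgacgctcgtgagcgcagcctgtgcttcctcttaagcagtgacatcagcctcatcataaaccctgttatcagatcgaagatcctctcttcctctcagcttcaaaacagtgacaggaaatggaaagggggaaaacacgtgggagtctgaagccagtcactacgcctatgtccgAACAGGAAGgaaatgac
Cldn5 -14924 (chr16:18761832-18762031): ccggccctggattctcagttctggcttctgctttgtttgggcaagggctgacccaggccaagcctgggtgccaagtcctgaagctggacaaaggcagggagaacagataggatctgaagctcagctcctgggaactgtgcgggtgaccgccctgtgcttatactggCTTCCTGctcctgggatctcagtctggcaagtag
Pecam1 -15644 (chr11:106730798-106730997): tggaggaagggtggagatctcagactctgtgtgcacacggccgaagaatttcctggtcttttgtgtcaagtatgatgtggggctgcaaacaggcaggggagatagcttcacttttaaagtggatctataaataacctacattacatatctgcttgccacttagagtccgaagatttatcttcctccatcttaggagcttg
Pecam1 -7799 (chr11:106722930-106723129): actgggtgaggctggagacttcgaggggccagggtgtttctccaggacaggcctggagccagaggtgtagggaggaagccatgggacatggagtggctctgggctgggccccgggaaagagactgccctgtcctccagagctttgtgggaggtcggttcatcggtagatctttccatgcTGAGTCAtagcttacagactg
Tjp1 -67084 (chr7:65438255-65438454): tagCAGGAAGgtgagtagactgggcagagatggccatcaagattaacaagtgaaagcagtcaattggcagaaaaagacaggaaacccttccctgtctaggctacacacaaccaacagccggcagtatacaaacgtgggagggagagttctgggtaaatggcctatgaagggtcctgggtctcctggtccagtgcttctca
Cgnl1 -54767 (chr9:71826269-71826468): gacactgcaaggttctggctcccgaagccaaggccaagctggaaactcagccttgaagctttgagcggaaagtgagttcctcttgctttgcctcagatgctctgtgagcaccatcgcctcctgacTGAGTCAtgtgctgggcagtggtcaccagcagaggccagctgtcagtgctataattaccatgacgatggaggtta
Esam +2457 (chr9:37530261-37530460): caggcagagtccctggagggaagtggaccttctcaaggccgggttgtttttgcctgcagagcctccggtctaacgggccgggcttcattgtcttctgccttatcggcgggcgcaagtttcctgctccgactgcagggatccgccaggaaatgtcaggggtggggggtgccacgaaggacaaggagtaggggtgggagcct

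Cldn5 -43394 held both ETS forms and Cldn5 -14924 one on the minus strand, whereas Pecam1 -15644 and Esam +2457 held none of the letters searched. Over all members, CAGGAAG stood within the 200 bp around the summit in 25 of 86 regions (29.1%), beside 19.99% of all 47338 regions. All 25 lay outside promoters, where the members numbered 78 and the share over all regions was 22.7%. The longer AACAGGAA stood in 6 members (6.98%, beside 4.97% of all regions), TGANTCA in 10 (11.6%, beside 8.72%) and CCACACCC, a site of KLF factors, in 5 (5.81%, beside 3.64%). Outside promoters these stood in 5, 9 and 3 of the 78 members, in the same order, beside 5.83%, 10.3% and 3.82% of all regions there. A match describes the letters of the reference and not the binding of a factor.

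The lists held between 21050 peaks (Aged Bleo 4) and 40883 (Aged Bleo 2), with a median of 26 to 35 fragments at the summit, and the background was 1.02 to 1.78 fragments. At this depth an uncalled region may still be accessible. All groups gave lists that varied in how many of the 47338 regions they called, the mean being 71.9% ± 6.66 for the 5 Young Sham mice (SD), 75.1% ± 5.87 for the 4 Young Bleo mice, 59.2% ± 7.12 for the 4 Aged Sham mice and 62.9% ± 15.6 for the 5 Aged Bleo mice. Of 10 endothelial marker promoters, 6 (Erg, Tie1, Kdr, Flt1, Eng and Robo4) had a peak in all 18 lists, Sox17 in 16, Egfl7 in 2, and Tek and Emcn in none. No promoter of 6 leukocyte and 3 mesothelial markers was called in any list. In each list 1 of 6 epithelial markers (Foxj1) and 2 of 6 fibroblast and mural markers (Pdgfra and Myh11) were called, and of 4 lymphatic markers only Lyve1, in 7 lists. The promoter of the platelet marker Pf4 was called in all 4 Young Bleo lists, 1 Aged Sham list and 1 Aged Bleo list. Those of Itga2b, Gp1ba and Hbb-bt, other markers of platelets and red cells, were called in no list. The part of these cells in the results was not tested. The libraries were run on 3 lanes. Lane 8 held the Young Sham mice and Young Bleo 4, lane 7 Young Bleo 1 to 3 and Aged Sham 1 to 3, and lane 6 Aged Sham 4 and the Aged Bleo mice, so no lane held both Young Sham and either aged group.

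In mm10 the genes lie at chr8:104101625-104144502 (Cdh5, plus strand), chr9:120933400-120960507 (Ctnnb1, plus), chr11:106654213-106715281 (Pecam1, minus), chr16:18776847-18778262 (Cldn5, plus), chr9:37528089-37538319 (Esam, plus), chr16:84774123-84826380 (Jam2, plus), chr1:171437561-171464593 (F11r, plus), chr7:65296165-65371244 (Tjp1, minus) and chr9:71626507-71771602 (Cgnl1, minus). They differed widely in how many open regions they had. Tjp1 had 18, Cdh5 17, Pecam1 14, Cldn5 12, Jam2 8, Esam and Cgnl1 6 each, F11r 4, and Ctnnb1 a single one at its TSS. Of the 86 regions, 48 lay upstream of the TSS, 28 within 10 kb of it and 27 more than 50 kb away, and the farthest was 136843 bp from the Cdh5 TSS. By the annotation of the midpoint, 38 were intergenic, 35 intronic, 8 in promoters (within 1000 bp before or 100 bp after a TSS), 4 in UTRs and 1 in another exon. The share in promoters was 9.30%, beside 21.3% of all regions, and the share between genes 44.2%, beside 34.9%. Introns were those of any gene. Cdh5 -5801 and Cdh5 -1895, for example, lay in introns of Gm29682.

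**Figure D1:**
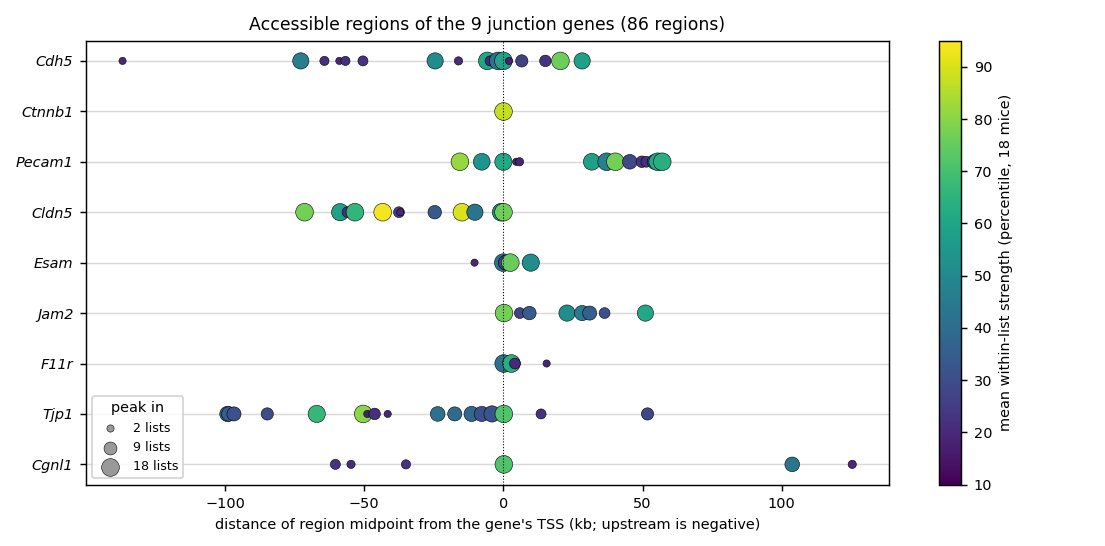
Distance of each of the 86 regions from the TSS of its junction gene (x axis) for the 9 genes (y axis), with point size for the number of lists that hold a peak there and colour for the mean strength (a percentile within each list) over the 18 mice. Tjp1 has 15 of its 18 regions upstream, Cldn5 11 of 12, and all Jam2 and F11r regions lie downstream of the TSS.

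Of the 86 regions, 24 (27.9%) had a peak in all 18 lists, beside 36.8% of all regions. A further 28 had one in 9 to 17 lists, 24 in 3 to 8, and 10 in just 2. Outside promoters the shares in all 18 lists were 23.1% for the members and 25.4% for all regions. The regions shared by all mice were spread over the genes. Cldn5 had 6 of 12, Pecam1 5 of 14, Cdh5 4 of 17, Esam 2 of 6, F11r 2 of 4, Tjp1 2 of 18, and Ctnnb1, Jam2 and Cgnl1 1 each.

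Each gene had a peak at its TSS in all 18 lists, with the exception of Pecam1, which lacked it in Aged Bleo 4, the list with the fewest peaks. Strength within a list was measured as a percentile, from 0 to 100, of the region among all 47338 regions of that list by fold enrichment over the local background, since fold enrichments of different libraries are not on a common scale. Over the 18 mice Ctnnb1 had the strongest TSS region at 87.4 ± 2.70 (SD). It was followed by Jam2 at 77.0 ± 3.99, Cldn5 at 76.4 ± 2.78, Tjp1 at 71.5 ± 5.36, Cgnl1 at 71.3 ± 5.57, Pecam1 at 61.0 ± 9.45, Cdh5 at 59.3 ± 6.69, Esam at 43.3 ± 8.76 and F11r at 41.4 ± 10.3. The steps from Ctnnb1 to Jam2 (10.4), from Cgnl1 to Pecam1 (10.3) and from Cdh5 to Esam (16.0) were larger than the SD on either side. The means of Jam2 and Cldn5, Tjp1 and Cgnl1, Pecam1 and Cdh5, and Esam and F11r stood closer than the SD of either, and the step from Cldn5 to Tjp1 (4.93) was smaller than the SD of Tjp1. These SDs are over mice and leave out that the genes were ranked in the same lists. Within a list the Cldn5 TSS stood above that of Tjp1 in every mouse but Young Bleo 2 (71.4 and 73.7).

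Fragment numbers gave another order, and the local background differed between the genes. The Cgnl1 TSS rested on a median of 33 fragments at the summit, over 1.66 expected from the background, and the Esam TSS on 99 over 17.8. The fold enrichment was 11.7 at Cgnl1 and 5.51 at Esam. The Ctnnb1 TSS had a median of 190.5 fragments (125 to 275), that of Cldn5 145.5 (64 to 204), Tjp1 108 (48 to 156), Cdh5 79 (22 to 148), Jam2 61 (19 to 87), F11r 43 (20 to 62) and Pecam1 33 in the 17 lists with a peak (13 to 44). At Cdh5 the summits held 100, 89, 90, 89 and 73 fragments in Young Sham and 27, 66, 58 and 56 in Aged Sham. These numbers did not overlap, but they are not scaled for depth, and the strength of the same region was 61.1, 47.9, 61.1, 55.7 and 65.9 in Young Sham and 52.0, 63.7, 73.2 and 50.8 in Aged Sham, with overlapping ranges. None of the 9 TSS regions was among the members called in strength in any comparison.

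**Figure D2:**
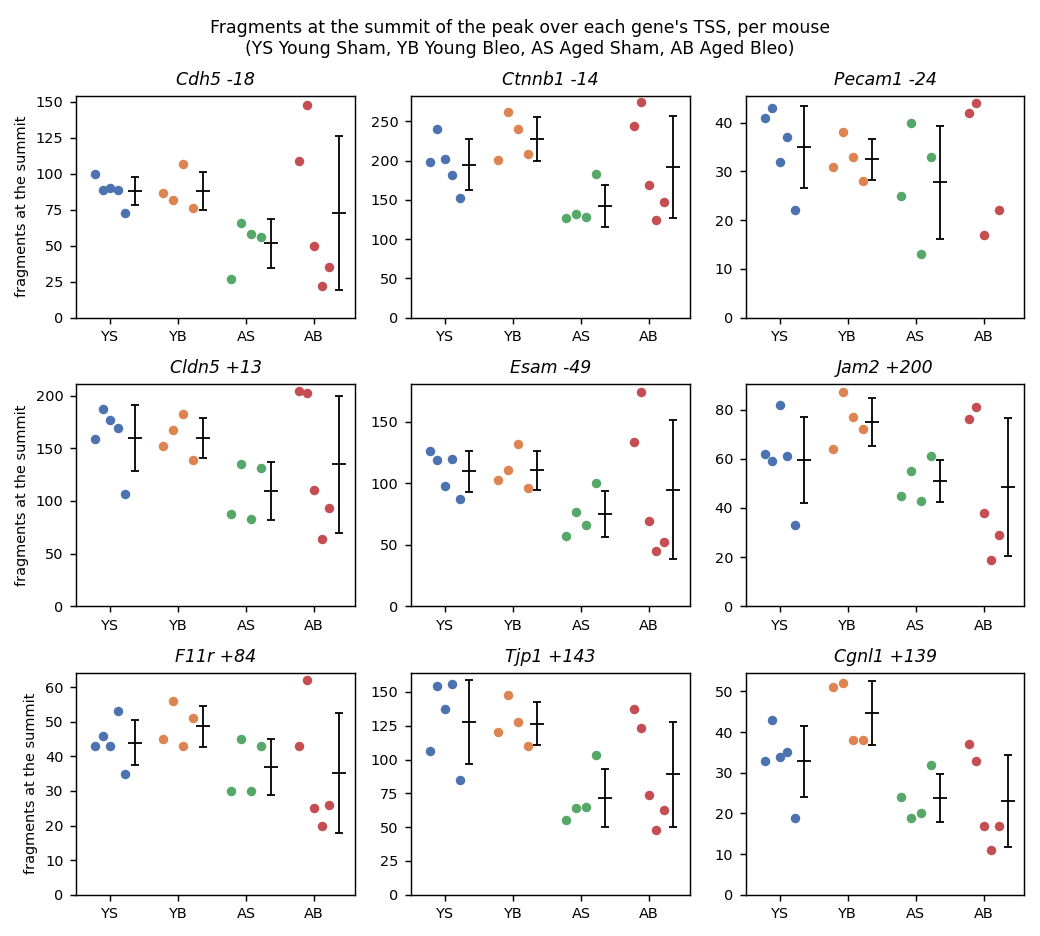
Fragments at the summit of the TSS region (y axis) of the 9 junction genes in each mouse, by group and not scaled for library depth, with the mean and SD of each group beside the points. Ctnnb1 has 125 to 275 fragments and Pecam1 13 to 44, and at Cdh5 the Aged Sham mice (27 to 66) lie below the Young Sham mice (73 to 100).

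In 6 of the genes another region was stronger than the TSS. The strongest of all members was Cldn5 -43394, an intergenic region with a strength of 93.4 ± 1.95 (SD, n = 18) and a median of 169.5 fragments, above the Cldn5 TSS. Cldn5 -14924 also stood at 90.1. Pecam1 -15644 had a strength of 81.4 ± 7.10, on a median of 41.5 fragments, compared with 61.0 at the Pecam1 TSS. Tjp1 -50389 stood at 80.3 ± 3.33 on 74.5 fragments, and Cdh5 +20461, in an intron, at 76.0 ± 3.79 on 100 fragments. Esam +2457, in an intron, was at 75.4 ± 4.19 with a median of 209.5 fragments, more than at any TSS of the 9 genes. F11r +2857 was at 63.5 ± 5.08. For Jam2 and Cgnl1 the TSS was the stronger site, with the next region of Jam2, +51005 in the 3′ UTR, at 61.0 ± 21.7 in 15 lists and that of Cgnl1, +103745 in an intron, at 43.2 ± 19.7 in 12 lists.

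**Figure D3:**
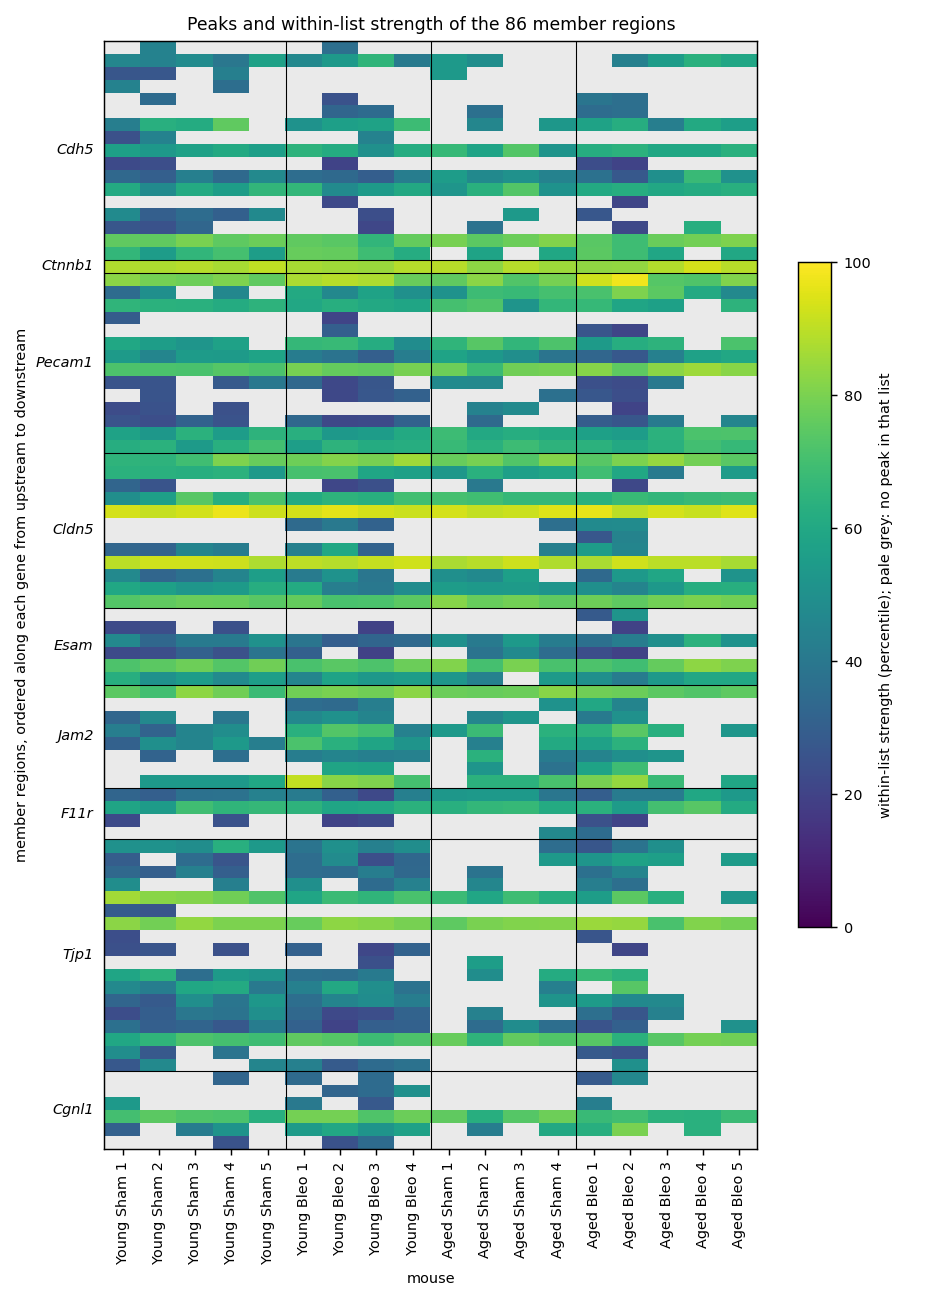
Strength of the 86 regions (rows, by gene and position) in the 18 mice (columns, by group), as a percentile within each list from 0 to 100, with pale grey where the list has no peak. Cldn5 -43394 lies at 90.1 or above in every mouse, and most Tjp1 regions upstream of the TSS are without a peak in several aged mice.

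The number of member regions called per mouse followed the number called over the whole genome. Members with a peak made up 67.2% ± 12.5 in Young Sham, 72.1% ± 10.3 in Young Bleo, 50.9% ± 11.2 in Aged Sham and 58.8% ± 21.9 in Aged Bleo (SD). When every list was cut to its 21050 strongest peaks, which left 44 members, the means were 70.9%, 76.7%, 72.7% and 75.9%, and those over all regions 74.3%, 74.4%, 73.6% and 73.2%. Tjp1, the gene with the most regions, differed widely between mice. Of its 15 regions upstream of the TSS, from 4101 to 99193 bp away, the Young Sham mice had a peak in 14, 11, 10, 12 and 8 and the Young Bleo mice in 12, 10, 13 and 11. Aged Sham mice had a peak in 2, 8, 3 and 8, and Aged Bleo mice in 11, 12, 6, 1 and 4. The Aged Sham values reached no higher than the lowest Young Sham mouse, whereas Aged Bleo overlapped every group. Over all 18 Tjp1 regions the shares were 73.3% and 75.0% in the young groups, Sham first, and 34.7% and 46.7% in the aged ones. With equal numbers of peaks they were 70%, 50%, 54.2% and 56.7% in the same order, over the 6 Tjp1 regions that were left.

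The design gave 4 comparisons, with the strength of every region fitted in limma over all 18 mice and p-values adjusted by the Benjamini-Hochberg method over 47338 regions or 17953 genes. For the presence of a peak Fisher's exact test, two-sided, was used, where no region of the genome passed adjustment, the smallest p that the group sizes allow being 0.00794. Regions without a peak shared the mean rank of all uncalled regions of their list. That rank was 11.1 to 19.1 in Young Sham, 9.89 to 15.1 in Young Bleo, 17.2 to 23.7 in Aged Sham and 9.81 to 28.5 in Aged Bleo, so it was higher in lists with fewer peaks. Called regions ranked above all uncalled ones of their list, so weak peaks also stood higher in lists with fewer peaks.

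The first comparison asked how ECs of uninjured aged mice differ from those of uninjured young mice. Tjp1, the ZO-1 gene, gave 4 of the 5 members that differed in presence at an unadjusted p of at most 0.05. These were Tjp1 -99193, -17505, -11448 and -7788, each with a peak in 5 of 5 Young Sham and 1 of 4 Aged Sham mice (p = 0.0476, Fisher's exact test). The fifth was Cdh5 +6587, in an intron, with the same numbers. Its midpoint lies nearer to the TSS of Gm29682 than to that of Cdh5. The 5 members are 5.81% of 86, beside 5.17% of all regions. Aged Sham 4 was the mouse with a peak at 3 of the 4 Tjp1 regions and Aged Sham 2 at Tjp1 -7788. Cut to equal numbers of peaks, the lists gave 1 such member of the 44 that were left. The share of all regions under that choice is given below with the other processing choices.

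In strength, Tjp1 -99193 was the only member called in Aged Sham versus Young Sham, 1 of 86, while 1.01% of all regions were called. Its strength was 50.6, 51.1, 49.1, 63.0 and 53.7 in Young Sham and 23.3, 17.2, 23.7 and 35.9 in Aged Sham. The groups did not overlap, and in Aged Sham only the last value, of Aged Sham 4, came from a peak, of 10 fragments. The difference was -28.5 (SE 6.91, limma, adjusted p = 0.0484). It passed the threshold only narrowly. Leaving out any mouse but Aged Sham 4 ended the call, with adjusted p of 0.0636 to 0.130 without Young Sham 1 to 5 or Aged Sham 1 to 3, compared with 0.0372 without Aged Sham 4. The replicate block and lane as a covariate also ended it. Pecam1 -7799 stood just outside the threshold, at 31.2 higher in Aged Sham (adjusted p = 0.0543, limma).

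Over whole genes, none of the 9 was called between Aged Sham and Young Sham by limma, while 1.58% of all genes were, and 3 of the 9 had an unadjusted p under 0.05, beside 16.3% of all genes. The mean strength of the 14 Pecam1 regions was 44.0, 43.4, 40.2, 43.4 and 41.3 in Young Sham and 49.9, 51.5, 48.7 and 46.8 in Aged Sham. These ranges did not overlap, and the difference of 6.78 (SE 1.84) had an adjusted p of 0.0727 in limma. Young Sham mice had a peak in 12, 12, 8, 11 and 7 of these regions and Aged Sham mice in 9, 11, 9 and 9. The rest held the shared rank of uncalled regions. F11r stood 7.50 higher (SE 2.89, adjusted p = 0.205, limma) and Tjp1 5.42 lower (SE 2.17, adjusted p = 0.219, limma). All 3 signs depended on the processing. Ranked among the peaks of their own list only, Pecam1 was at -0.52 and F11r at -0.13, and over its regions with a peak in all 18 lists Tjp1 was at 1.79. Cdh5, Ctnnb1, Cldn5, Esam, Jam2 and Cgnl1 differed by -1.74 to 9.43, with adjusted p of 0.464 or more in limma. The median difference of the 86 members was 1.95, beside 0.575 over all regions.

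The second comparison asked how the ECs of young mice differ 30 days after bleomycin. Cgnl1, the paracingulin gene, was called both at a region and over its regions, and the second call did not hold without the first region. Cgnl1 -54767, an intergenic region, had a peak in 3 of 4 Young Bleo mice, of 13, 15 and 17 fragments, and in none of the other 14 mice. It thus entered the set of regions only through the group in which it was high, and its tests against Young Sham are no independent support. It was 1 of 4 members that differed in presence, which is 4.65% of 86, beside 5.94% of all regions. The others were Cldn5 -37547 and Jam2 +5876, each with a peak in 3 of 4 Young Bleo and 0 of 5 Young Sham mice, and Cdh5 +6587 with 1 of 4 and 5 of 5 (p = 0.0476 for each, Fisher's exact test). Cldn5 -37547 and Jam2 +5876 were also called in 1 Aged Sham and 2 Aged Bleo mice each. Jam2 +5876 held 15, 18 and 26 fragments in Young Bleo 1 to 3 and Cldn5 -37547 12, 15 and 14. Neither had a peak in Young Bleo 4, the one Young Bleo mouse on the lane of the Young Sham mice.

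In strength, Cgnl1 -54767 was again the only member called in Young Bleo versus Young Sham, 1 of 86, while 6.65% of all regions were called. Its values were 14.9, 32.7, 34.9 and 50.1 in Young Bleo and 11.1, 12, 15.6, 12.3 and 19.1 in Young Sham, the last 5 and the first all without a peak. The difference was 19.1 (SE 5.55, limma, adjusted p = 0.0402), in a region that only Young Bleo lists had brought in. With lane as a covariate the difference was 36.1 (SE 8.18) and its adjusted p 0.104. Young Bleo 4, which shared lane 8 with Young Sham, had the highest value. The adjusted p lay between 0.0616 and 0.119 without Young Sham 1 to 4 or Young Bleo 2 to 4, which ended the call, and was 0.0424 without Young Sham 5 and 0.00875 without Young Bleo 1. The Jam2 3′ UTR region, +51005, was at 90.6, 82.3, 80.6 and 70.5 in Young Bleo and at 11.1, 54.1, 53.6, 53.9 and 59.5 in Young Sham. Young Sham 1 had no peak there, so its 11.1 is the shared rank of uncalled regions and not a measured strength. The groups did not overlap, but the difference of 34.6 had an adjusted p of 0.0566 in limma. Its midpoint lies nearer to the TSS of Atp5j, which codes for a subunit of the mitochondrial ATP synthase, than to that of Jam2. At Cdh5 +6587 the difference was -22.3 (adjusted p = 0.0580, limma).

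Over whole genes, Cgnl1 was the 1 member of 9 called in Young Bleo versus Young Sham, while 5.84% of all genes were called. Its mean over 6 regions was 31.4, 22.5, 29.5, 34.3 and 26.5 in Young Sham and 39.8, 36.1, 42.8 and 38.3 in Young Bleo, with no overlap. The rise was 10.4 (SE 3.03, limma, adjusted p = 0.0498). The call was lost without any one of Young Sham 1, 2, 3 and 5 and Young Bleo 1 to 4 (adjusted p of 0.0667 to 0.141), and was kept without Young Sham 4 (0.0462). With lane as a covariate the rise was 9.51 (SE 5.14) and the adjusted p 0.612, which also ended the call. Young Bleo 4, on lane 8 with the Young Sham mice, was at 38.3, a value that includes its 50.1 at Cgnl1 -54767. Cgnl1 -54767 is one of the 6 regions in this mean. Over the 5 Cgnl1 regions with a peak in more than 1 group the rise was 8.70 (SE 3.68) with an adjusted p of 0.187 in limma, so the call was lost, while 4.90% of all genes were called. The Young Bleo mice then stood at 44.8, 36.8, 44.4 and 36.0 and the Young Sham mice at 35.5, 24.6, 32.2, 38.8 and 27.9, and these ranges overlapped. Young Bleo 4 then lay below Young Sham 4 of the same lane. The mean of the 8 Jam2 regions was 28.3, 38.5, 36.2, 41.95 and 33.3 in Young Sham and 55.5, 60.9, 59.5 and 42.3 in Young Bleo. Young Bleo 4 lay close to the highest Young Sham mouse and the other three lay well above, and the difference of 18.9 (SE 6.11) had an adjusted p of 0.0751 in limma, or 0.0407 without Young Bleo 4. Without that mouse no Young Bleo mouse shared a lane with Young Sham, so group and lane cannot be told apart there. Over the 19 other settings the adjusted p in limma was 0.0226 to 0.928, and 3 of them gained the call. With lists cut to equal numbers of peaks, 4 Jam2 regions were left, and on average a Young Sham mouse had a peak in 30% and a Young Bleo mouse in 87.5% of them. The other 7 genes differed by -4.80 to 1.55, with adjusted p of 0.261 or more in limma. Over the 86 members the median difference was -0.88, beside -0.24 over all regions.

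**Figure D4:**
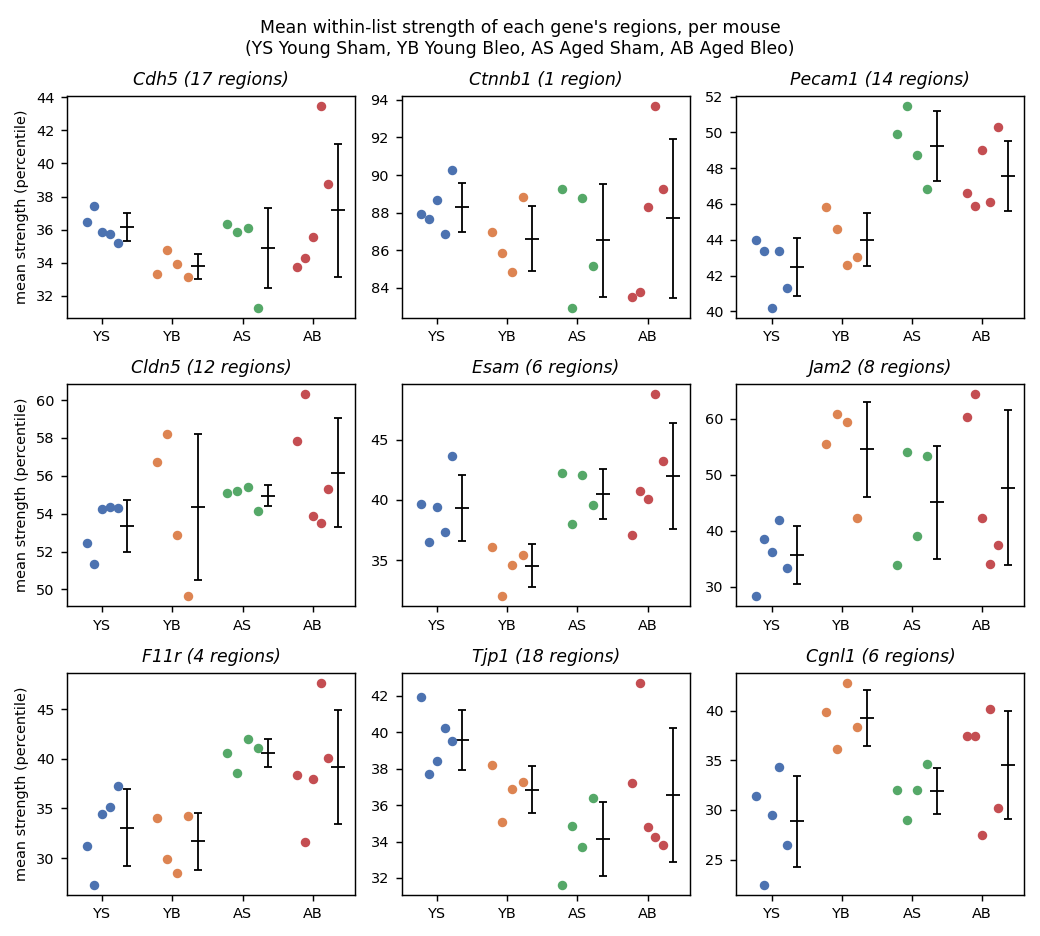
Mean strength of the regions of each junction gene (y axis, percentile within the list) in each mouse, by group, with the mean and SD of the group. Cgnl1 is at 36.1 to 42.8 in Young Bleo and 22.5 to 34.3 in Young Sham, and Pecam1 at 45.9 to 51.5 in the 9 aged mice and 40.2 to 45.8 in the 9 young mice. These means include the shared rank of uncalled regions, which is higher in lists with fewer peaks. Aged Bleo 4, at 46.1 for Pecam1, had a peak in 6 of the 14 regions.

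The third comparison set the injured aged ECs against the uninjured young ones. Presence differed at 2 members, 2.33% of 86, beside 3.21% of all regions. Cdh5 +6587 and Tjp1 -17505 each had a peak in 1 of 5 Aged Bleo mice, Aged Bleo 1 and Aged Bleo 2 respectively, and in 5 of 5 Young Sham mice (p = 0.0476, Fisher's exact test). Both regions are also among those named for Aged Sham, with which this comparison shares its Young Sham mice.

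In strength, 6 of the 86 members (6.98%) were called in Aged Bleo versus Young Sham, beside 8.11% of all regions. They were 2 regions each of Pecam1 and Tjp1 and 1 each of Cldn5 and Esam, with 5 of the 6 higher in Aged Bleo. The Cldn5 and Esam regions had peaks in Aged Bleo mice alone and so entered the set of regions only through the group in which they were high, which leaves 4 that other groups also held. Pecam1 -7799, an intergenic region, stood at 35.2, 49.7, 15.6, 46.2 and 19.1 in Young Sham, where Young Sham 3 and 5 had no peak, and at 71.2, 80.7, 74.6, 60.8 and 47.1 in Aged Bleo. It overlapped only through Aged Bleo 5, which lay below Young Sham 2. The rise was 33.7 (SE 7.41, limma, adjusted p = 0.0107), and leaving out any 1 mouse kept the call, with adjusted p of 0.00549 to 0.0313. The call was lost by percentile among the peaks of a list alone (adjusted p = 0.240) and with lane as a covariate (0.864, a rise of 20.8). The same region stood at 60.7, 46.7, 57.7 and 50.1 in Young Bleo and at 51.2, 68.5, 67.2 and 70.4 in Aged Sham. Its fold enrichment was 5.74, 7.23 and 6.49 in Young Sham 1, 2 and 4 and 11.9, 17.9, 11.4, 5.34 and 4.67 in Aged Bleo. In Aged Bleo 4 and 5, on 10 and 9 fragments, it thus lay below every Young Sham peak, although the percentile of Aged Bleo 4 was above them all.

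Tjp1 -67084 was the one member that fell. This intergenic region stood at 86.2, 82.2, 81.5, 78.2 and 72.6 in Young Sham and at 55.7, 74.8, 63.0, 28.5 and 52.6 in Aged Bleo, and Aged Bleo 4 had no peak there. The groups overlapped through Aged Bleo 2 and Young Sham 5. It fell by 25.2 (SE 5.77, limma, adjusted p = 0.0137), and the call was kept without any 1 mouse, with adjusted p of 0.00477 to 0.0376. Without Aged Bleo 4 it fell by 18.6. With lane as a covariate the adjusted p in limma was 0.881, which ended the call. The Young Bleo mice stood at 58.9, 68.3, 65.6 and 71.5 and the Aged Sham mice at 68.0, 59.1, 69.0 and 62.1, below every Young Sham mouse and within the range of Aged Bleo. At the summit there were 57, 43, 43, 41 and 25 fragments in Young Sham and 20, 32, 16 and 11 in the 4 Aged Bleo mice with a peak.

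Pecam1 +40212, in an intron and called in all 18 lists, was at 72.1, 71.7, 71.2, 73.5 and 71.6 in Young Sham and at 81.9, 75.1, 82.7, 85.2 and 82.1 in Aged Bleo. The groups did not overlap, and the rise of 9.38 (SE 2.37) had an adjusted p of 0.0228 in limma. It was 0.0517 without Young Sham 2, which ended the call, and 0.0112 to 0.0465 without any other mouse. By percentile among the peaks of a list alone it was 0.0722, and with lane as a covariate 0.852, and both also ended the call. The Young Bleo mice were at 79.6, 76.5, 75.5 and 79.3, also above all Young Sham mice. The Aged Sham mice were at 78.1, 68.2, 78.3 and 79.1, with Aged Sham 2 below every Young Sham mouse. Of these mice only Young Bleo 4 was on the lane of the Young Sham mice.

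The remaining 3 calls were less firm. Tjp1 -98660 stood at 29.4, 12, 35.3, 26.6 and 19.1 in Young Sham and at 52.0, 57.4, 56.4, 28.5 and 54.8 in Aged Bleo, where Aged Bleo 4 had no peak. It rose by 25.3 (SE 7.81, limma, adjusted p = 0.0476), and the call held only without Aged Bleo 4 (0.0223) among the 10 mice left out in turn, the other adjusted p being 0.0552 to 0.124. With lane as a covariate the sign turned, to -9.76 (SE 19.7, adjusted p = 0.950). It lies beside Tjp1 -99193, which was at 26.9, 38.3, 49.96, 28.5 and 22.6 in Aged Bleo, and the ranges of Aged Bleo and Young Sham overlapped there.

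Cldn5 -37056 and Esam -10393 were each called in Aged Bleo 1 and Aged Bleo 2 alone, with 11 and 20 fragments at Cldn5 and 11 and 18 at Esam. Both regions entered the set only through these mice, so their tests against Young Sham are no independent support. Their differences of 14.6 (SE 4.19, adjusted p = 0.0366) and 16.2 (SE 4.74, adjusted p = 0.0392) in limma also held the mean rank of uncalled regions, which was 20.1, 28.5 and 22.6 in Aged Bleo 3 to 5. Both calls held without Young Sham 5, Aged Bleo 3 or Aged Bleo 5. They were lost without any one of Young Sham 1 to 4 and Aged Bleo 1, 2 and 4, where the adjusted p was 0.0506 to 0.0831 for Cldn5 and 0.05001 to 0.0869 for Esam. By percentile among the peaks of a list alone neither was called.

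**Figure D5:**
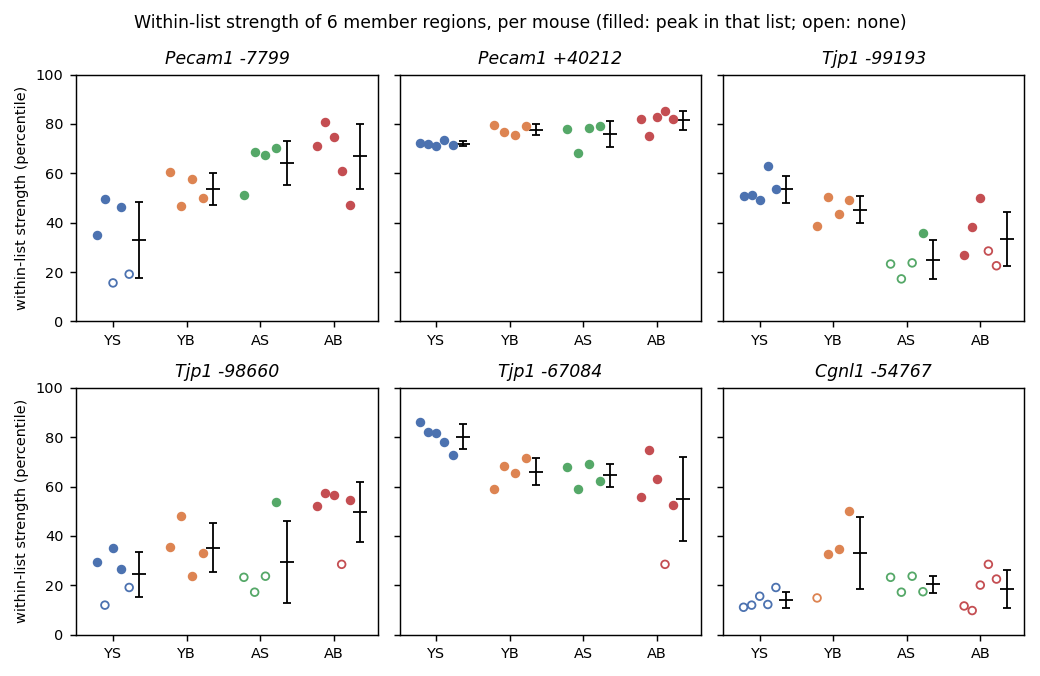
Strength (y axis, percentile within the list) of the 6 members called in strength in any comparison that have a peak in at least 3 lists, for each mouse by group (YS Young Sham, YB Young Bleo, AS Aged Sham, AB Aged Bleo). Filled points have a peak and open points none, bars are the mean and SD, and at Tjp1 -67084 all 5 Young Sham mice lie at 72.6 or above, with Young Bleo and Aged Sham below them.

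No lane held mice of both groups, so lane and this comparison cannot be told apart within a lane, and the same holds for Aged Sham versus Young Sham. With lane as a term of the fit, the lowest adjusted p of any member in Aged Bleo versus Young Sham was 0.650 in limma.

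Over whole genes, none of the 9 was called in Aged Bleo versus Young Sham by limma, while 9.02% of all genes were, and 2 of the 9 (22.2%) had an unadjusted p under 0.05, beside 26.8% of all genes. Pecam1 was at 46.6, 45.9, 49.0, 46.1 and 50.3 in Aged Bleo, above all 5 Young Sham mice, and the difference of 5.11 (SE 1.74) had an adjusted p of 0.0706 in limma. The Aged Bleo mice had a peak in 12, 13, 10, 6 and 9 of the 14 Pecam1 regions, and the rest held the shared rank of uncalled regions. F11r stood 6.08 higher (SE 2.73, adjusted p = 0.160, limma). Ranked among the peaks of their own list, Pecam1 was at -0.47 and F11r at -0.24. Cdh5 differed by 1.03, Ctnnb1 by -0.57, Cldn5 by 2.83, Esam by 2.65, Tjp1 by -2.99, Cgnl1 by 5.71 and Jam2 by 12.1, with adjusted p of 0.188 or more in limma. The median over the 86 members was 1.84, beside 0.257 over all regions.

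The fourth comparison, Aged Bleo versus Aged Sham, asked how aged ECs differ after injury. No member differed in presence at p of at most 0.05 in Fisher's exact test, while 0.885% of all regions did. In strength limma called 0 of the 86 members, beside 0.0782% of all regions, and 5 of the 86 (5.81%) had an unadjusted p under 0.05, beside 11.5% of all regions. On lane 6 Aged Sham 4 alone stood beside the 5 Aged Bleo mice. The smallest p belonged to Tjp1 -98660, 20.3 higher in Aged Bleo (adjusted p = 0.345, limma), Esam +748, 13.1 lower (0.392), and Pecam1 +51355, 12.6 lower (0.395). At Tjp1 -98660 Aged Sham 4 was at 53.9, within the 28.5 to 57.4 of the Aged Bleo mice, and Aged Sham 1 to 3 had no peak. Esam +748, in an intron, had a peak in 3 of 4 Aged Sham and 2 of 5 Aged Bleo mice, and Pecam1 +51355 in 2 of 4 and 1 of 5. Over whole genes limma called 0 of the 9, beside 0.078% of all genes, and 0 had an unadjusted p under 0.05, beside 12.4% of all genes. Differences lay between -1.67 (Pecam1) and 2.63 (Jam2), with adjusted p of 0.712 or more.

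Whether the bleomycin difference itself differed with age was tested as an interaction in limma. None of the 86 members was called, the lowest adjusted p being 0.359, with 4 (4.65%) at an unadjusted p under 0.05, beside 9.37% of all regions. None of the 9 genes was called either, with a lowest adjusted p of 0.567 and 0 at an unadjusted p under 0.05, beside 9.74% of all genes. For Cgnl1 the interaction was -7.81 (SE 4.28, adjusted p = 0.579) and for Jam2 -16.3 (SE 8.64, adjusted p = 0.567), and both missed the threshold. Over the genome 19 regions and 5 genes were called.

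A list of 35 other junction genes, from adherens and tight junctions, gap junctions and their regulators, was read in the same way, and all 35 had at least 1 region. Ocln, the gene of occludin, a tight junction membrane protein, was the only one called in any of the 4 comparisons, in Young Bleo and in Aged Bleo versus Young Sham. That is 1 of 35 in each, where 5.84% and 9.02% of all genes were called. The mean strength of its 6 regions was 38.2, 36.9, 38.4, 39.4 and 40.7 in Young Sham, 24.5, 28.5, 28.1 and 31.6 in Young Bleo, 38.7, 34.3, 37.6 and 40.9 in Aged Sham and 29.3, 32.8, 28.2, 34.5 and 22.6 in Aged Bleo. Both Bleo groups lay below all Young Sham mice. Aged Bleo 5 had a peak in 0 of the 6 regions, so its 22.6 is the shared rank of uncalled regions and not a measured strength, and the other mice had a peak in 1 to 4. Ocln fell by 10.5 in Young Bleo (SE 2.58, limma, adjusted p = 0.0231) and by 9.26 in Aged Bleo (SE 2.43, limma, adjusted p = 0.0273), each against the same Young Sham mice. The first call was lost without Young Sham 4, Young Bleo 1, Young Bleo 2 or Young Bleo 3 (adjusted p of 0.0528 to 0.0776), and the second without Young Sham 2, 3 or 4 or Aged Bleo 1 or 5 (0.0501 to 0.0610). With lane as a covariate both calls were lost, at falls of 7.07 (SE 4.199, adjusted p = 0.665) and 8.70 (SE 6.71, adjusted p = 0.793). The first was also lost by percentile among own peaks (0.380), and the second with a -log10 q of at least 5 (0.0704) and with equal numbers of peaks (0.0541). Against Aged Sham, Ocln was 8.43 lower in Aged Bleo (adjusted p = 0.173, limma).

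Of the other 34 genes none rose or fell past the threshold. The median difference over the 35 against Young Sham was -2.42 for Aged Sham, -3.50 for Young Bleo and -1.21 for Aged Bleo, and 1.39 in Aged Bleo against Aged Sham, with 27, 25, 24 and 13 genes lower. For all genes tested the medians were 0.207, -0.148, 0.019998 and -0.0627 in the same order. Among those that missed the threshold, N-cadherin (Cdh2), with a single region, was 27.8 lower in Aged Sham than in Young Sham (SE 7.30, adjusted p = 0.0649, limma). It had a peak in 5 of 5 Young Sham and 0 of 4 Aged Sham mice, so the Aged Sham values are the shared rank of uncalled regions and not a measured strength.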

How the data were processed

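ATAC-seq of sorted lung ECs from 18 mice was used, as 1 list of peaks per mouse. By the study's methods the authors used the HiChIP pipeline, in which BWA aligned read pairs to mm10, pairs without a uniquely mapped end were dropped, Picard MarkDuplicates removed duplicates and MACS2 called peaks for each mouse at an FDR of 1%. Fold enrichment, as deposited, is a ratio of the fragments at a summit to the local background of that library. The p and q values were deposited as -log10 of the authors' MACS2 test within that library, and the deposited score, a rescaled q, was not used. None of these is scaled between libraries. The authors' DiffBind test needs read counts, which were not used here, so it was not repeated. Groups and replicate numbers came from the labels, and lanes from the names of the lists.

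Peaks on chromosomes 1 to 19, X and Y that overlapped by at least 1 bp were merged, leaving out 19 mitochondrial peaks of 5 lists, and regions in at least 2 lists were kept. RefSeq transcripts (45756, GRCm38.p6) gave TSSs and gene bodies. Fragments at a summit were solved from fold enrichment and -log10 p, which came out whole within 0.02 for 99.98% of peaks or more in each list. They are those of the strongest peak of a region. Depth was read from these numbers, and the read totals are unknown. Strength was the percentile of fold enrichment among all regions of a list, regions without a peak sharing their mean rank. It was fitted with limma 3.58.1 (moderated test with trend, R 4.3.3) on all 18 mice, for regions and for the mean over a gene's regions, and called at an adjusted p of at most 0.05. Presence was tested with Fisher's exact test (SciPy 1.17.1) at an unadjusted p of at most 0.05. The fit was tested on simulated data, but the outcome is not given here, so it bears on none of the results. The labels do not say whether mice were littermates or how sorts were spread over days, so p-values measure the spread between these mice.

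The 9 genes, the list of other junction genes and the markers were chosen with earlier results of these data known. Named were all TSS regions, the strongest other region of each gene, every member called in strength or presence or, where none was, the 3 with the smallest p, and other junction genes called over the gene. Pecam1 -7799 in Aged Sham, Jam2 +51005 and Cdh5 +6587 in Young Bleo by strength, Cldn5 -14924 and Cdh2 were named after their values were seen. One marker and one sequence are not reported here. Alternatives were ranking by -log10 p, a percentile among a list's own peaks, regions in all 18 lists or in at least 3, 50% coverage, a -log10 q of at least 5, the same number of peaks per list, the nearest TSS alone, a replicate block, lane as a covariate, promoters of 2 kb up- and downstream, each mouse left out and, added after seeing the data, gene means over regions with a peak in more than 1 group.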

Additional observations from a re-analysis of the deposited data

Results flagged for a closer look

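In Aged Sham the mean strength of the 17 Cdh5 regions was 36.3, 35.8, 36.1 and 31.3, so Aged Sham 4 lay apart from the other mice of its group, with a gap to the nearest of 0.900 of the whole range. At the Cdh5 TSS the same mouse stood at 50.8, beside 52.0, 63.7 and 73.2. It was the one Aged Sham mouse on lane 6, and the cause was not tested. The values of 40 groups of 4 or 5 mice were checked in this way, of which chance is expected to mark about 5%.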

How the results depend on the processing

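Of 552 repeats under another choice, 370 kept the call and sign of a tested value or stayed near an untested one, 88 lost the call, 5 gained one, 83 moved a count or share and 6 turned the sign. Ranking by -log10 p in place of fold enrichment gave more calls: 3 members in Aged Sham versus Young Sham (1 as reported), 6 in Young Bleo (1), 11 in Aged Bleo versus Young Sham (6) and 1 in Aged Bleo versus Aged Sham (0), where 2.19%, 11.4%, 16.8% and 4.11% of all regions were called, and over genes 2 in Young Bleo (1), 1 in Aged Bleo versus Young Sham (0) and 1 in Aged Bleo versus Aged Sham (0), beside 10.2%, 16.97% and 4.05% of all genes. In the same 3 comparisons with Young Sham, regions in all 18 lists gave 0, 0 and 1 members (0.975%, 3.56% and 9.77% of all regions), and lane as a covariate 0, 0 and 0, with 6, 15 and 0 calls over all regions compared with 477, 3146 and 3841. The replicate block gave 0, 2 and 3 members (0.642%, 5.68% and 7.03% of all regions). The call of Cgnl1 over its regions was lost (0 genes) with the replicate block, lane, regions in all 18 or at least 3 lists, percentile among own peaks, -log10 q of at least 5, and nearest TSS alone, over regions with a peak in more than 1 group (an alternative chosen after seeing the data), and with equal numbers of peaks (adjusted p = 0.390), where Jam2 was the one gene called (0.0226, limma). In that order, the shares of all genes called were 4.42%, 0.0279%, 2.82%, 6.37%, 1.88%, 5.70%, 5.59%, 4.90% and 4.41%. Same-numbered mice of different groups shared only a number, the correlation of their deviations being -0.223 to 0.232 (median 0.00286, 25 pairs). With the same number of peaks per list, strength gave 0 members in Aged Sham and 3 in Aged Bleo (1.36% and 7.32% of all regions), genes 1 in Aged Bleo versus Young Sham (8.47% of all genes), and presence 1 each in Aged Sham (5 as reported), Aged Bleo (2) and Aged Bleo versus Aged Sham (0), beside 2.92%, 3.06% and 1.48% of all regions. The share of members called in Aged Sham then moved from 50.9% to 72.7%. Percentile among own peaks gave 3 members in Aged Bleo (6.73% of all regions). Regions in at least 3 lists gave 2 members in Aged Sham (1.27% of all regions) and 1 gene in Aged Bleo (9.47% of all genes), both against Young Sham. For presence, 50% coverage gave 3 members in Aged Sham (6.40% of all regions), and -log10 q of at least 5 and nearest TSS alone 1 each in Aged Bleo (3.24% and 3.21%). Leaving out 1 mouse at a time, strength gave 0 to 1, 0 to 3 and 2 to 8 members, while the share of all regions called was 0.389% to 1.28%, 3.71% to 6.97% and 2.90% to 9.52%. Presence gave 0 to 3, 0 to 2 and 2 to 5, beside 1.15% to 2.15%, 1.69% to 3.08% and 3.73% to 5.86% of all regions, and genes in Young Bleo 0 to 1, beside 3.04% to 6.12% of all genes. Removing a mouse shrinks the groups, and Fisher's test of 1 of 4 against 4 of 4 cannot pass. Signs turned in 6 values: Pecam1 (-0.52) and F11r (-0.13) in Aged Sham and Pecam1 (-0.47) and F11r (-0.24) in Aged Bleo by percentile among own peaks, Tjp1 in Aged Sham over regions in all 18 lists (1.79), and Tjp1 -98660 in Aged Bleo with lane (-9.76). The cause was not tested. Lists of 21050 to 40883 peaks limit what presence can show.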
